A study of Mus musculus with 32 samples.

Results

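Forskolin (FSK) and DHPG engage different second messengers, and the libraries described here compare the total RNA of mouse hippocampal cultures after each. One group of cultures received 50 µM FSK for 30 min, and it is set against cultures that received 30 µM DHPG for 30 min. DMSO alone, in equal volume, was given to the control group, used below for levels and for the common estimate of spread. All cultures were started from hippocampi of newborn (P0) mice and harvested at day 16 in vitro. The comparison takes in every FSK and DHPG library of total RNA, 6 of each, or 12 of the 32 samples of the series, and every gene of the count table. A narrower comparison of FSK 1 to 3 with DHPG 1 to 5, 8 libraries in all, is given beside it, because these 8 share a low proportion of mitochondrial ribosomal RNA. The labels do not say whether replicates were separate cultures or animals, so p-values measure the spread between these samples, which may be technical.

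FSK activates adenylyl cyclases directly. The cyclic AMP (cAMP) that they make releases the catalytic subunits of protein kinase A, which phosphorylate the transcription factor CREB on the promoters of its target genes. DHPG activates the metabotropic glutamate receptors (mGluRs) of group I, which act through Gq and phospholipase C to release calcium from internal stores and to activate protein kinase C and the ERK cascade. Both routes reach the immediate-early genes, whose transcription starts within minutes and needs no new protein.

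Library totals fell into 2 ranges, and the mitochondrial rRNA share followed them. In 9 libraries (FSK 1 to 3, DHPG 1 to 5 and DMSO 1) the totals were 20677117 to 24892959 estimated counts, and mt-Rnr1 plus mt-Rnr2 made up 1.47% to 2.92% of them. In the other 7 (FSK 4 to 6, DHPG 6 and DMSO 2 to 4) the totals were 38409918 to 59958600 and the share was 10.8% to 27.7%. On the first principal component of the 12 FSK and DHPG libraries, which held 49.4% of the variance, FSK 4 and FSK 5 lay at 107 and 112, against -63.0 to 28.7 for the other 10. Levels are given below as CPM, counts relative to the library total after scaling by trimmed mean of M-values (TMM), which may be compared between libraries for 1 gene but not between genes. The cultures, labelled as neurons, held neuronal transcripts, with the vesicular glutamate transporter Slc17a7 at 426 to 644 CPM in FSK libraries and 559.6 to 977 CPM in DHPG libraries. They also held glia, with the astrocyte filament Gfap at 894 to 2575 CPM in FSK libraries and 486 to 1229 CPM in DHPG libraries. In such bulk RNA, fewer cells of a type and less RNA per cell cannot be told apart.

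Within the 8 libraries of low mitochondrial rRNA share, 9 of the 11 features called at an adjusted p under 0.05 were higher in FSK. Of these 9, 6 belong to lists of immediate-early transcription factors (30 measured), immediate-early effectors (26), CREB and cAMP targets (22) or genes that damp MAP kinase signalling (16). The lists were chosen with earlier results of these data known, so membership in them is no independent support for a shared theme. Of 16320 features tested, 9 were higher in FSK (0.0551% of those tested) and 2 were lower (0.0123%), together 0.0674%, at an adjusted p under 0.05, by edgeR's quasi-likelihood test with Benjamini-Hochberg adjustment. The higher genes were Fosb, Npas4, Arl4d, Dusp1, Rgs2, Zic2, Leng8, Mir1938 and 1700016P03Rik, the host transcript of miR-212 and miR-132. All 9 were also higher when all 12 libraries were compared. Many more features lay past the limit, with 2078 at an adjusted p under 0.1 and 4959 (30.4%) at an unadjusted p under 0.05, 15.7% higher and 14.7% lower. The number called was 4179 without DHPG 1, 3 without DHPG 3, FSK 1 or FSK 2, 4 without DHPG 4 and 5 without DHPG 5. The same contrast in a fit of 6 groups over all 16 libraries called 8 features of 17173, all higher (0.0466%), and 5 of the 11 were among them: Fosb, Arl4d, Dusp1, Rgs2 and 1700016P03Rik. The other 6 of the 11, both lower features included, did not pass in that fit (edgeR adjusted p of 0.11 to 0.13). DESeq2 called 1058 features higher (7.03%) and 1140 lower (7.58%) in the same 8 libraries, and limma-voom called 30 higher and 2 lower.

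Fosb belongs to the Fos family, which pairs with Jun proteins in the AP-1 transcription factor. Its level was 89.4, 84.4 and 89.3 CPM in FSK 1 to 3, against 30.5, 10.3, 11.6, 13.9 and 15.2 CPM in DHPG 1 to 5, and 3.09 CPM in DMSO 1. The high-rRNA libraries gave 78.6, 96.0 and 77.0 CPM in FSK 4 to 6, against 32.3 CPM in DHPG 6 and 11.3, 2.98 and 3.98 CPM in DMSO 2 to 4. Every FSK library therefore lay above every DHPG library in both library sets, with FSK values close together and DHPG 1 and DHPG 6 highest among the DHPG values; over all features tested, every FSK library lay above every DHPG library in 3.21% and below in 4.03%. The log2 fold change was 2.42 ± 0.31 (SE; FSK n = 3, DHPG n = 5; edgeR adjusted p = 0.037) in the low-rRNA libraries and 2.17 ± 0.34 over all libraries (n = 6 each; edgeR adjusted p = 0.016). Leaving out 1 of the 8 low-rRNA libraries at a time kept its log2 fold change between 2.29 and 2.77, but the call held in 2 of 8 such fits, those without DHPG 1 and DHPG 2, and the adjusted p reached 0.26 without FSK 1.

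Npas4, a transcription factor largely restricted to neurons and induced by depolarization, showed the same order. FSK 1 to 3 held 136, 132 and 132 CPM, against 50.3, 25.1, 30.1, 23.6 and 30.6 CPM in DHPG 1 to 5. FSK 4 to 6 held 97.8, 133 and 126 CPM, against 76.7 CPM in DHPG 6, so that no DHPG library reached an FSK library. DMSO libraries spanned 7.29 to 91.6 CPM, and DMSO 2, at the top of that range, lay above all 6 DHPG libraries. The log2 fold change was 2.06 ± 0.21 in the low-rRNA libraries (edgeR adjusted p = 0.0088) and 1.68 over all libraries (edgeR adjusted p = 0.019). The first of these calls was lost without DHPG 3, FSK 1 or FSK 2 (adjusted p = 0.060, 0.068 and 0.053) and in the fit of 6 groups (adjusted p = 0.11).

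Arl4d is a small GTPase of the Arf family. It stood at 30.9, 31.0 and 30.0 CPM in FSK 1 to 3, against 10.5, 7.58, 6.09, 6.51 and 6.49 CPM in DHPG 1 to 5, and at 24.2, 24.8 and 30.6 CPM in FSK 4 to 6, against 13.7 CPM in DHPG 6. DMSO libraries held 5.39, 5.204, 3.81 and 3.68 CPM, all below the lowest DHPG library. Its log2 fold change was 2.04 ± 0.16 (edgeR adjusted p = 6.3e-04) in the low-rRNA libraries, and the call held in all 8 fits that left out 1 library, as it did for Gm3788 and Gm26822 alone among the other 10. With all libraries but FSK 4 and FSK 5, the only calls of 16723 features were Arl4d, Ptgs2 and Rgs2, all higher in FSK (0.0179%), by edgeR. None was lower (0%), and 4771 features then had an unadjusted p under 0.05.

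1700016P03Rik carries the precursors of miR-212 and miR-132, a CREB-regulated microRNA cluster of neurons. FSK 1 to 3 held 12.2, 12.002 and 10.97 CPM, against 4.17, 2.88, 1.86, 2.08 and 1.32 CPM in DHPG 1 to 5. FSK 4 to 6 held 10.6, 13.4 and 16.3 CPM, against 5.82 CPM in DHPG 6, and DMSO libraries held 0.398, 1.80, 0.773 and 0.949 CPM. The lowest FSK library was thus above the highest DHPG library, and 5 of 6 DHPG libraries were above every DMSO library. The log2 fold change of 2.25 ± 0.28 in the low-rRNA libraries (edgeR adjusted p = 0.026) passed in 3 of 8 fits without 1 library, with an adjusted p of up to 0.19 without FSK 1.

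Dusp1 encodes a phosphatase that inactivates MAP kinases and is itself an immediate-early gene. It had 49.8, 45.8 and 47.6 CPM in FSK 1 to 3, against 25.04, 13.4, 13.8, 12.6 and 14.5 CPM in DHPG 1 to 5, a log2 fold change of 1.59 ± 0.20 (edgeR adjusted p = 0.026). In the high-rRNA libraries it had 166, 172 and 106 CPM in FSK 4 to 6, against 60.4 CPM in DHPG 6, and 34.4, 21.4 and 20.3 CPM in DMSO 2 to 4, against 6.14 CPM in DMSO 1. Dusp1 was thus higher in the high-rRNA libraries of every group, and FSK 1 to 3 lay below DHPG 6. The difference was in the same direction within each library set, and the call in the low-rRNA libraries held in 2 of 8 fits without 1 library, with an adjusted p of up to 0.20 without FSK 1.

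Rgs2, which speeds the return of Gq to its inactive state, was the gene called with the smallest fold change. Its level was 101, 98.3 and 88.4 CPM in FSK 1 to 3 and 131, 121 and 111 CPM in FSK 4 to 6, against 68.9, 58.9, 55.2, 61.8 and 59.5 CPM in DHPG 1 to 5 and 48.5 CPM in DHPG 6. The groups did not overlap, and DMSO libraries, at 38.0 to 47.7 CPM, lay below every DHPG library. The log2 fold change was 0.66 ± 0.092 (edgeR adjusted p = 0.037) in the low-rRNA libraries, where only the fit without DHPG 1 kept the call among 8 leave-one-out fits, with adjusted p of up to 0.28 without FSK 1, and 0.88 over all libraries (edgeR adjusted p = 0.0029).

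The calls of Leng8 and of the zinc-finger gene Zic2 each held in 1 of 8 leave-one-out fits and were lost in the fit of 6 groups. Zic2 had 14.9, 11.7 and 13.6 CPM in FSK 1 to 3, against 7.76, 6.65, 7.10, 7.23 and 7.17 CPM in DHPG 1 to 5 (log2 fold change 0.90 ± 0.12; edgeR adjusted p = 0.026). Leng8 had 20.9, 18.4 and 20.8 CPM in FSK 1 to 3, against 13.0, 11.96, 9.86, 12.2 and 10.7 CPM in DHPG 1 to 5 (log2 fold change 0.80 ± 0.11; edgeR adjusted p = 0.037). For both genes DHPG 6 stood within the range of the FSK libraries, at 13.3 CPM for Zic2 and 20.6 CPM for Leng8. Mir1938 averaged 1.19 CPM in FSK 1 to 3 and 0.207 CPM in DHPG 1 to 5, below the abundance set for naming a gene, and is given because so few were called.

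Both features lower in FSK were noncoding and of low abundance, and neither passed in the fit of 6 groups. Gm26822, a long noncoding RNA, had 0.601, 0.630 and 0.403 CPM in FSK 1 to 3, against 5.44, 6.42, 5.33, 3.74 and 5.31 CPM in DHPG 1 to 5 and 6.89 CPM in DMSO 1 (log2 fold change -3.25 ± 0.25; edgeR adjusted p = 6.3e-04). FSK 5, at 6.68 CPM, lay above all DHPG libraries, and the difference over all libraries did not pass the test (edgeR adjusted p = 0.090). Gm3788, a pseudogene whose reads may be shared with near-identical copies, had 0 counts in FSK 1 to 3 together, against 251 in DHPG 1 to 5, at least 59.1-fold lower when the FSK group is set to a floor of 3 counts over the group. DHPG 6 and DMSO 2 to 4, all of the high-rRNA set, also had 0 for Gm3788. The other features of smallest p in this direction did not pass: Arsg (log2 fold change -0.77), Rfxap (-0.47) and Gm47287 (-1.92).

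**Figure D1:**
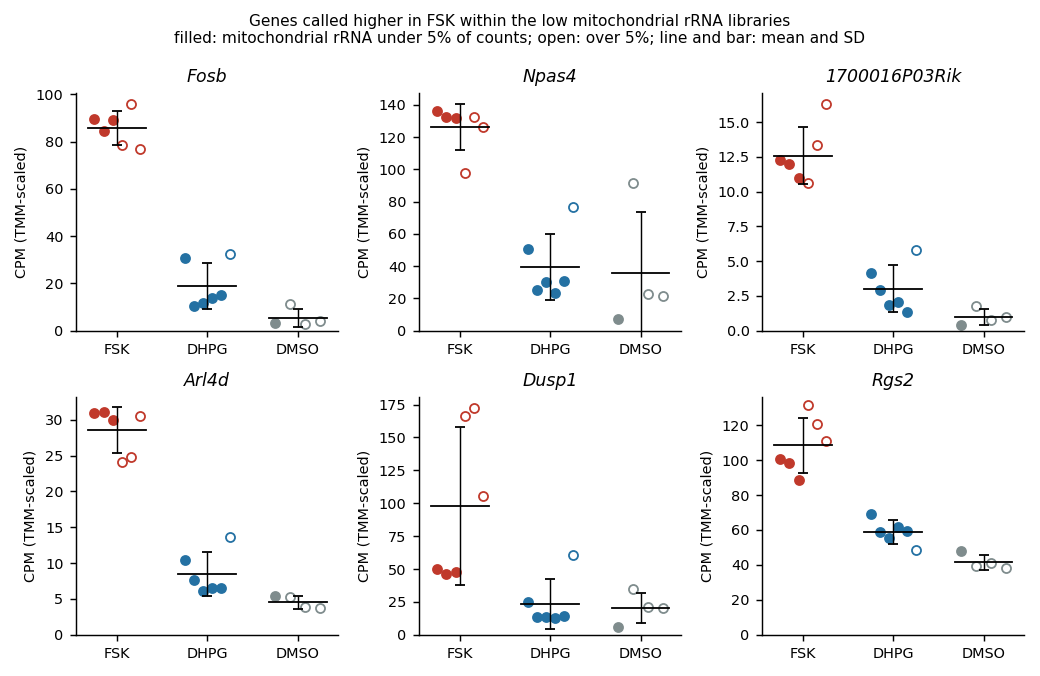
CPM (vertical axis, TMM-scaled) of 6 genes called higher in FSK within the low-rRNA libraries, by group, with 1 point per library, filled for the low-rRNA set and open for the high-rRNA set. Lines and bars are mean and SD. FSK points lie above all DHPG points for Fosb, Npas4, 1700016P03Rik, Arl4d and Rgs2, while for Dusp1 the FSK points of the low-rRNA set lie below DHPG 6.

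Since CREB is the nuclear effector of the cAMP route, the 250 bases before the RefSeq transcription start of the called genes were searched on both strands for the cAMP response element (CRE) TGACGTCA and its half-site TGACG, read as CGTCA on the other strand. A half-site that lies inside a full CRE counts under both. RefSeq windows (GRCm38.p6) were matched for 6 of the 9 genes higher in the low-rRNA libraries. All 6 held a half-site, as did 29.0% of the 12031 tested genes with a window, and 2 of 6 (Arl4d and Dusp1) held the full CRE, as did 2.96% of those genes. Over all 32851 windows of the mouse table, whatever the gene, the shares were 17.8% for the half-site and 1.55% for the CRE. The windows of 5 genes are printed 5′ to 3′ on the gene's strand with the CRE and half-sites in capitals. They show where these letters stand before genes called in the low-rRNA libraries.

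Arl4d: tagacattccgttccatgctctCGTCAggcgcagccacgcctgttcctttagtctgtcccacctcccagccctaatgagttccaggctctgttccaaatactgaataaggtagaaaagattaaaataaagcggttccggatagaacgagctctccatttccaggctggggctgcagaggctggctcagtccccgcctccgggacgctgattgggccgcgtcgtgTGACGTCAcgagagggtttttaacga
Dusp1: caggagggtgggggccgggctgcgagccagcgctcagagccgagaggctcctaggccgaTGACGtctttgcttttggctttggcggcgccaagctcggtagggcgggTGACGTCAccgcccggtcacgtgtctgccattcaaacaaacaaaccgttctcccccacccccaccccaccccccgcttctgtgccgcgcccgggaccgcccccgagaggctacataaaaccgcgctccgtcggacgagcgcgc
Fosb: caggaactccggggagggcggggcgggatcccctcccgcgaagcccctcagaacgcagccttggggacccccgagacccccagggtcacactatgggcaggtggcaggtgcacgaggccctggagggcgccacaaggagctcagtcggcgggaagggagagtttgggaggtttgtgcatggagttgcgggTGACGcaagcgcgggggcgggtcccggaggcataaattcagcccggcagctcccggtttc
Npas4: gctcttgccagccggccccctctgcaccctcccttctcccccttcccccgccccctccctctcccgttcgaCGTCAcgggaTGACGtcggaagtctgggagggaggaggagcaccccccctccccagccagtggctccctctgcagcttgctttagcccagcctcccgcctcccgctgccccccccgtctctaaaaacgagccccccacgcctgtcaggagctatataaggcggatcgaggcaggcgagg
Rgs2: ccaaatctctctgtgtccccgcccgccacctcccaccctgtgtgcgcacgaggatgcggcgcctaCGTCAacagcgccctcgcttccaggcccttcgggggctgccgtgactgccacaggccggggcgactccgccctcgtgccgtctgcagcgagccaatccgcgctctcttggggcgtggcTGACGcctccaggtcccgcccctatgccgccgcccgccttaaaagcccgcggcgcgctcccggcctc

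These windows are chr11:101665291-101665540 (+) for Arl4d, chr17:26508473-26508722 (-) for Dusp1, chr7:19310046-19310295 (-) for Fosb, chr19:4989972-4990221 (-) for Npas4 and chr1:144004150-144004399 (-) for Rgs2, all upstream of the start. Counted from the start, the CRE began at base -26 in Arl4d and at base -143 in Dusp1. The half-site of Fosb began at -60, those of Npas4 at -179 and -169, and those of Rgs2 at -185 and -67. Among the 2103 genes with a window that were higher over all libraries, 27.7% held a half-site, against 33.2% of the 1924 that were lower. The first share lay below the 29.0% of tested genes and the second above it, and these differences were not tested. Of the immediate-early transcription factors listed, 18 of 23 with a window held one (78.3%), and of the CREB and cAMP target genes 11 of 14 (78.6%), with the full CRE in 5 of the 14 (35.7%). A gene counted if any of its windows matched, and these lists averaged 1.39 and 1.64 windows per gene, against 1.28 for tested genes. The second list was made of genes taken as CREB or cAMP targets, so its share of CREs is no independent result.

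The immediate-early transcription factors as a list leaned the same way as the called genes. Of 30 measured, 2 passed in the low-rRNA libraries (Fosb and Npas4), and 27 had a positive log2 fold change, with a median of 0.60, against a median of -0.00094 over all features tested. In 14 of the 30 every FSK library lay above every DHPG library of that set, and in 1, Klf10, every FSK library lay below; such separation occurred in 9.88% and 10.8% of all features tested. Over all 12 libraries 13 were higher and 1, Klf10, lower, with a median of 0.52, where 16.3% of all 17173 features tested were higher and 14.4% lower, with a median of 0.03.

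Nr4a2, an orphan nuclear receptor and a CREB target, had 21.6, 18.4 and 16.1 CPM in FSK 1 to 3 and 38.0, 37.6 and 19.6 CPM in FSK 4 to 6, against 11.5, 5.82, 4.48, 8.34 and 6.54 CPM in DHPG 1 to 5 and 10.5 CPM in DHPG 6. The groups did not overlap, and the gene passed over all libraries (log2 fold change 1.68; edgeR adjusted p = 0.016) but not in the low-rRNA libraries (1.35; adjusted p = 0.090). Fos, the founding AP-1 gene, had 458, 444 and 449.6 CPM in FSK 1 to 3 and 723, 796 and 393 CPM in FSK 4 to 6, against 301, 114, 123, 184 and 181 CPM in DHPG 1 to 5 and 347 CPM in DHPG 6. No DHPG library reached the lowest FSK library, and the log2 fold change was 1.38 over all libraries (edgeR adjusted p = 0.019) and 1.32 in the low-rRNA libraries (adjusted p = 0.090).

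Klf4 and Maff, transcription factors of the Krüppel-like and small Maf families, also kept every FSK library above every DHPG library, with FSK 4 and FSK 5 far above the rest. Klf4 had 54.9 and 48.3 CPM in these 2 and 11.04 to 14.3 CPM in the other FSK libraries, against 1.41 to 5.26 CPM in DHPG libraries. Maff had 66.1 and 67.5 CPM in these 2 and 17.9 to 27.0 CPM in the other FSK libraries, against 4.75 to 12.5 CPM in DHPG libraries. Both passed over all libraries (log2 fold changes 2.85 and 2.16), and neither passed in the low-rRNA libraries (1.94 and 1.40; edgeR adjusted p = 0.090 and 0.064). With FSK 4 and FSK 5 left out, the median of the list was 0.39 over the remaining libraries.

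Arc, Egr1 and Egr2, by contrast with Fosb, passed in neither comparison. Arc, whose protein regulates AMPA receptor endocytosis, had 235, 240.2 and 228 CPM in FSK 1 to 3 and 140.2, 169 and 177 CPM in FSK 4 to 6, against 96.6, 136, 192, 161 and 172 CPM in DHPG 1 to 5 and 122 CPM in DHPG 6. FSK 1 to 3 lay above all DHPG libraries but FSK 4 to 6 lay within their range, and both groups were above all 4 DMSO libraries (21.4 to 80.0 CPM). Its log2 fold change was 0.63 ± 0.18 in the low-rRNA libraries (edgeR adjusted p = 0.090) and 0.43 ± 0.26 over all (adjusted p = 0.20).

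Egr2, a zinc-finger transcription factor, had 17.4, 18.5 and 17.1 CPM in FSK 1 to 3 and 18.1, 26.9 and 19.2 CPM in FSK 4 to 6, against 21.2, 11.4, 10.5, 13.9 and 11.8 CPM in DHPG 1 to 5 and 20.1 CPM in DHPG 6. Both groups again lay above every DMSO library (3.36 to 8.98 CPM), and DHPG 1 lay above 5 of 6 FSK libraries. Its log2 fold changes were 0.36 ± 0.21 in the low-rRNA libraries and 0.40 ± 0.23 over all (edgeR adjusted p = 0.26 and 0.18). Egr1 followed the library set as well as the stimulus, with 51.8 to 63.8 CPM in FSK 1 to 3 and 107 to 177 CPM in FSK 4 to 6, against 32.8 to 52.7 CPM in DHPG 1 to 5 and 141 CPM in DHPG 6, beside 23.0 CPM in DMSO 1 and 75.6 to 115 CPM in DMSO 2 to 4. Its log2 fold change was 0.52 ± 0.14 in the low-rRNA libraries (adjusted p = 0.090).

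Trh, the precursor of thyrotropin-releasing hormone, was detected at low level after both stimuli and hardly at all after DMSO. It had 0.39976, 0.694 and 0.850 CPM as lowest, median and highest FSK library, against 0.302, 0.456 and 1.01 CPM for DHPG and 0 to 0.0442 CPM for DMSO. The FSK and DHPG ranges overlapped throughout, with a log2 fold change of 0.22 ± 0.38 over all libraries (edgeR adjusted p = 0.67). For Nr4a1, a nuclear receptor, and Homer1, a scaffold of group I mGluRs, the log2 fold changes passed over all libraries (0.995 and 0.49; adjusted p = 0.035 and 0.021) and not in the low-rRNA libraries (0.94 and 0.52; adjusted p = 0.090 and 0.091).

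**Figure D2:**
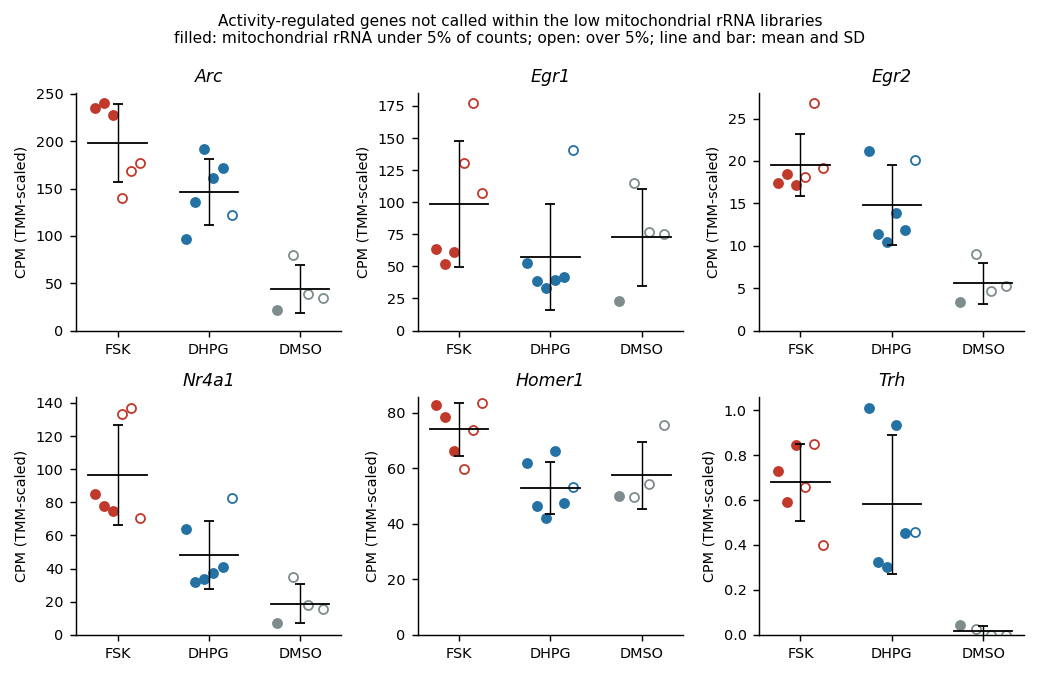
CPM (vertical axis, TMM-scaled) of 6 activity-regulated genes that did not pass the test within the low-rRNA libraries, by group, with 1 point per library, filled for the low-rRNA set and open for the high-rRNA set. Lines and bars are mean and SD. FSK and DHPG points overlap for all 6 genes over both library sets, and for Arc, Egr2 and Trh both stand above every DMSO point.

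Of the immediate-early effectors, whose products are not sequence-specific transcription factors, 26 were measured in the low-rRNA libraries and 2 passed (Arl4d and Rgs2), where 0.0551% of all features were higher, with a median log2 fold change of 0.26. Over all libraries 10 of 27 were higher and 1, Plk3, lower, with a median of 0.49, beside 16.3% higher and 14.4% lower among all features. Ptgs2, the inducible cyclooxygenase COX-2, had 10.01, 9.37, 7.08, 17.6, 20.5 and 10.3 CPM in FSK 1 to 6, against 4.9996, 2.84, 3.27, 4.76, 4.49 and 3.81 CPM in DHPG 1 to 6. Every FSK library exceeded every DHPG library, with FSK 4 and FSK 5 highest, and its log2 fold change was 1.63 over all libraries (edgeR adjusted p = 0.016), 1.19 without FSK 4 and FSK 5 (adjusted p = 0.037) and 1.11 in the low-rRNA libraries (adjusted p = 0.090). Tiparp, a mono-ADP-ribosyltransferase, was higher in FSK over all libraries (log2 fold change 1.07, edgeR adjusted p = 0.016). So was Arl5b, another Arf-like GTPase (0.50, edgeR adjusted p = 0.044).

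Of 22 CREB and cAMP target genes measured, 1 passed in the low-rRNA libraries (1700016P03Rik), where 0.0551% of all features were higher, and the list median was 0.22. Over all libraries 6 of the 22 were higher and none lower, with a median of 0.18, beside 16.3% higher and 14.4% lower among all features. Sik1, a kinase that restrains the CREB coactivators, had 28.7, 26.0 and 28.7 CPM in FSK 1 to 3 and 54.5, 52.1 and 22.5 CPM in FSK 4 to 6, against 19.3, 14.2, 20.4, 16.8 and 16.0 CPM in DHPG 1 to 5 and 22.7 CPM in DHPG 6. FSK 6 was just below DHPG 6 and the other FSK libraries were above all DHPG libraries, and the log2 fold change was 0.96 over all libraries (edgeR adjusted p = 0.016) and 0.69 in the low-rRNA libraries (adjusted p = 0.078). Also higher over all libraries were Rasd1, a Ras-like GTPase (log2 fold change 2.18), and Gem, another small GTPase (1.22). Crem, whose inducible form represses CREB targets (0.45, edgeR adjusted p = 0.029), and Ppargc1a, a coactivator of mitochondrial genes (0.54), were higher too. Rasd1 had 6.11 and 3.69 CPM in FSK 4 and FSK 5 and 1.22 to 1.82 CPM in the other FSK libraries, against 0.186 to 0.953 CPM in DHPG libraries. Ppargc1a had 10.4 to 20.3 CPM in FSK libraries and 9.17 to 13.3 CPM in DHPG libraries. DMSO libraries, at 13.4 to 19.3 CPM of Ppargc1a, lay within the FSK range. Bdnf, a neurotrophin, and Per1, a clock gene with a CRE, passed in neither comparison, with log2 fold changes over all libraries of 0.27 ± 0.15 and 0.31 ± 0.21.

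Among 16 genes that damp MAP kinase signalling, Dusp1 alone passed in the low-rRNA libraries, and Dusp1 and Spred1 over all libraries, no larger a share than the 16.3% of all features higher there, with a list median of 0.10. The late-response and secreted synaptic genes gave no call in the low-rRNA libraries by edgeR (17 measured, median -0.03), where 4 were higher and 3 lower at an unadjusted p under 0.05 (15.7% and 14.7% of all features) and DESeq2 called 3 higher (7.03% of all features). Over all libraries 3 of the 17 were higher, near the 16.3% of all features, among them Timp1 (log2 fold change 2.03), an inhibitor of metalloproteinases, and Igf1 (1.22), a growth factor. Another 5 were lower, where 14.4% of all features were, among them Lingo1 (-0.64), a neuronal membrane protein, and Gpr3 (-0.69), a receptor coupled to Gs, and the list median was -0.23.

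**Figure D3:**
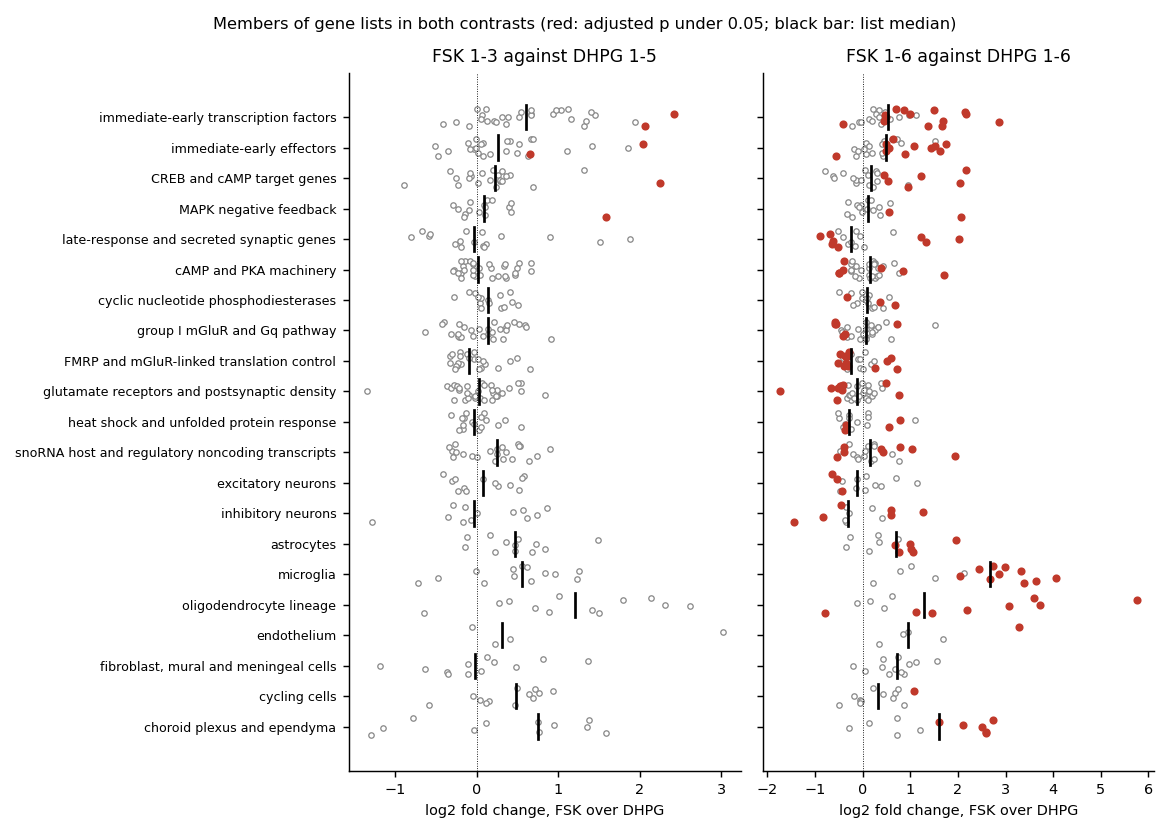
Log2 fold changes of FSK over DHPG (horizontal axes) for the members of 21 gene lists, in FSK 1 to 3 against DHPG 1 to 5 (left) and in FSK 1 to 6 against DHPG 1 to 6 (right). Each point is a gene, red where the adjusted p was under 0.05, and the black bar is the list median. In the left panel 6 members of the lists pass, all to the right of 0, and in the right panel the microglial list has the largest median, 2.67.

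The signalling machinery itself gave no edgeR or limma-voom call in the low-rRNA libraries on either side of the comparison. For the cAMP and protein kinase A machinery 32 genes were measured and the median log2 fold change was 0.01 there. At an unadjusted p under 0.05, 8 of the 32 were higher and 2 lower, where 15.7% and 14.7% of all features were. By DESeq2 3 were higher and 1 lower (7.03% and 7.58% of all features). Over all libraries 3 were higher and 4 lower, with a median of 0.15, and neither share exceeded the 16.3% and 14.4% of all features. Creb1 had 36.9, 34.0, 26.0, 37.4, 47.0 and 33.0 CPM in FSK 1 to 6, against 26.8, 14.5, 16.9, 23.0, 20.6 and 18.2 CPM in DHPG 1 to 6. It was higher in FSK over all libraries (log2 fold change 0.84, edgeR adjusted p = 0.016), while FSK 3 lay below DHPG 1. The adenylyl cyclase genes Adcy3, Adcy5 and Adcy9 were lower in FSK over all libraries (log2 fold changes -0.50, -0.40 and -0.41). Adcy3 had 79.3 to 91.3 CPM in FSK 1 to 3 and 46.2 to 74.9 CPM in FSK 4 to 6. It had 92.0 to 113 CPM in DHPG libraries and 81.9 to 98.6 CPM in DMSO libraries. Adcy5 had 91.8 to 102 CPM in FSK 1 to 3 and 60.7 to 77.8 CPM in FSK 4 to 6. It had 101 to 118 CPM in DHPG libraries and 99.4 to 106 CPM in DMSO libraries. Of the cyclic nucleotide phosphodiesterases, which end the cAMP signal, 15 were measured in the low-rRNA libraries with a median of 0.14. At an unadjusted p under 0.05, 4 of them were higher and 1 lower (15.7% and 14.7% of all features), and none passed by DESeq2. Over all libraries Pde7a (0.36) and Pde3b (0.69) were higher and Pde1b (-0.32) lower of 17, again no larger shares than among all features.

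On the DHPG side, Grm5, which encodes the receptor mGluR5, passed in neither comparison. It had 151, 208 and 229 CPM as lowest, median and highest FSK library, against 123, 161 and 198 CPM for DHPG (log2 fold change 0.33 ± 0.15; edgeR adjusted p = 0.10). Of 29 genes of the group I mGluR and Gq pathway, none passed in the low-rRNA libraries (median 0.13), where 4 were higher and 5 lower at an unadjusted p under 0.05, together near the 30.4% of all features, and 2 and 2 by DESeq2, near its 7.03% and 7.58%. Over all libraries 1 was higher, Plcb4, and 5 were lower, with a median of 0.07, beside 16.3% higher and 14.4% lower among all features. Gna11, a Gq-class G protein subunit, had 111, 118, 124, 87.8, 85.9 and 91.6 CPM in FSK 1 to 6, against 121, 169, 191, 141, 162 and 144 CPM in DHPG 1 to 6 (log2 fold change -0.58; edgeR adjusted p = 0.016). FSK 4 to 6 were the lowest libraries, and FSK 3 lay above DHPG 1. Also lower were Dagla, which makes the endocannabinoid 2-AG (-0.56), Ncdn (-0.58) and the diacylglycerol kinase Dgkz (-0.37).

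FMRP and the translation regulators downstream of mGluRs gave 4 higher and 9 lower of 23 over all libraries (median -0.24), the first near the 16.3% of all features that were higher and the second above the 14.4% that were lower. None passed in the low-rRNA libraries (median -0.09), where 2 were higher and 5 lower at an unadjusted p under 0.05 (15.7% and 14.7% of all features) and 2 and 2 by DESeq2 (7.03% and 7.58%). Fmr1 (0.73), which encodes the RNA-binding protein FMRP, and its paralog Fxr1 (0.59) were higher. Eef2k (-0.31), the kinase of elongation factor 2, and Mknk1 (-0.34), a kinase of eIF4E, were lower. Of 34 glutamate receptor and postsynaptic density genes, 2 were higher and 8 lower over all libraries (median -0.12), against the same 16.3% and 14.4%. None passed in the low-rRNA libraries (median 0.03), where 5 were higher and 6 lower at an unadjusted p under 0.05, near the shares of all features, and 4 and 3 by DESeq2. Shank3, a postsynaptic scaffold, had 79.1 to 90.9 CPM in FSK 1 to 3 and 62.0 to 74.6 CPM in FSK 4 to 6, against 86.5 to 111 CPM in DHPG 1 to 5 and 136 CPM in DHPG 6, for a log2 fold change of -0.46 over all libraries (edgeR adjusted p = 0.017).

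Heat shock and unfolded protein genes gave 2 of 17 higher and 2 lower over all libraries (median -0.27), no larger shares than the 16.3% and 14.4% of all features. None passed in the low-rRNA libraries (median -0.03), where 3 were higher and 2 lower at an unadjusted p under 0.05, together near the 30.4% of all features, and 1 and 1 by DESeq2, near its 7.03% and 7.58%. Dnajb9 (0.79) and Hsp90aa1 (0.56), both chaperone genes, were higher in FSK over all libraries, and Atf4 (-0.38) and Herpud1 (-0.35) lower. Dnajb9 had 28.9 to 32.5 CPM in FSK 4 to 6 and 14.7 to 18.3 CPM in FSK 1 to 3. DHPG libraries held 10.3 to 17.1 CPM of it, DMSO 1 held 11.1 CPM and DMSO 2 to 4 held 20.3 to 29.4 CPM. Atf4 had 169 to 171 CPM in FSK 1 to 3 and 115 to 155 CPM in FSK 4 to 6. It had 184 to 219 CPM in DHPG libraries and 150 to 186 CPM in DMSO libraries. Of 22 snoRNA host and regulatory noncoding transcripts, 5 were higher and 3 lower over all libraries (median 0.15), against 16.3% and 14.4% of all features. None passed in the low-rRNA libraries (median 0.25), where 8 were higher and 4 lower at an unadjusted p under 0.05 (15.7% and 14.7% of all features) and 6 higher by DESeq2 (7.03%). Malat1, a nuclear long noncoding RNA, had 1892, 1460.1, 1247, 2332, 2298 and 1193 CPM in FSK 1 to 6, against 1119, 711, 763, 878, 651 and 936 CPM in DHPG 1 to 6. All FSK libraries exceeded all DHPG libraries, FSK 6 narrowly, and the log2 fold change was 1.04 over all libraries (edgeR adjusted p = 0.016) and 0.90 in the low-rRNA libraries (adjusted p = 0.090). Neat1, the RNA scaffold of paraspeckles, was higher over all libraries by a log2 fold change of 1.95. It had 42.2 and 39.4 CPM in FSK 4 and FSK 5 and 5.297 to 10.99 CPM in the other FSK libraries. DHPG libraries held 3.09 to 8.004 CPM of Neat1, a range that overlapped that of the other FSK libraries.

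Over all 12 libraries the largest differences were in genes of microglia, of oligodendrocytes and of the acute-phase response, and they were carried by FSK 4 and FSK 5. Of 17173 features, 5283 passed (30.8%), 2803 higher in FSK and 2480 lower, with a median absolute log2 fold change of 0.57. FSK 4 and FSK 5 were the highest of the 12 libraries in 1885 of the higher features (67.2%, against 22.9% of all features tested) and the lowest in 1534 of the lower ones (61.9%, against 19.8%). Without FSK 4 alone 2575 features passed and without FSK 5 alone 1804, while without both the number was 3. Leaving out DHPG 2, DHPG 3 or DHPG 5 gave 3031, 1924 and 2380. A term for the 2 library sets left 1959 higher (11.4%) and 2048 lower (11.9%), and the same term without FSK 4 and FSK 5 left 801 higher (4.79%) and 750 lower (4.48%), together 9.27%, of which 723 and 670 were also called in the full comparison. Scaling to library totals in place of TMM gave 1760 higher and 750 lower, and DESeq2 called 37% of features.

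The 15 largest increases among features of at least 1 CPM on average were Steap4, Mobp, Fyb, Lcn2, C3, Fcrls, Pld4, Mal, Adgre1, Ms4a6d, Marco, Saa3, Ptprc, Cp and Ncf1, with log2 fold changes of 4.03 to 5.76. C3, the central complement component, had 507 and 1175 CPM in FSK 4 and FSK 5 and 8.74 to 33.1 CPM in the other FSK libraries, against 1.32 to 30.4 CPM in DHPG libraries and 6.54 to 61.7 CPM in DMSO libraries. Lcn2, an iron-binding acute-phase protein, had 57.4 and 549 CPM in FSK 4 and FSK 5 and 2.47 to 10.6 CPM in the other FSK libraries, against 0.808 to 7.28 CPM in DHPG libraries. Mobp, a myelin gene, had 40.9 and 71.3 CPM in FSK 4 and FSK 5 and 0.69959 to 1.63 CPM in the other FSK libraries, against 0 to 1.01 CPM in DHPG libraries. For all 3 genes the other FSK libraries overlapped the DHPG range, and C3 in FSK 6 was close to its level in DHPG 6.

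Markers of cell types moved with these libraries. The shares of all features, to set beside the marker counts, were 16.3% higher and 14.4% lower over all libraries and, in the low-rRNA libraries, 15.7% and 14.7% at an unadjusted p under 0.05 and 7.03% and 7.58% by DESeq2. The summed level of 15 microglial markers was 52.2, 44.9, 59.7, 242, 422 and 27.8 CPM in FSK 1 to 6, against 60.7, 40.9, 38.4, 34.4, 44.2 and 30.7 CPM in DHPG 1 to 6 and 45.9, 38.1, 28.2 and 24.98 CPM in DMSO 1 to 4. FSK 4 and FSK 5 stood far above every other library, and 10 of the 15 passed over all libraries, none in the low-rRNA libraries by edgeR or limma-voom (medians 2.67 and 0.56), where 2 were higher and 1 lower at an unadjusted p under 0.05 and DESeq2 called 1 lower. The summed level of 12 oligodendrocyte markers was 1027, 865, 963, 1067, 1491 and 597 CPM in FSK libraries, against 892, 618, 549, 619, 661 and 718 CPM in DHPG libraries. Of these, 7 were higher and 1, the progenitor factor Olig1, lower over all libraries, with medians of 1.29 over all and 1.21 in the low-rRNA libraries, where none passed by edgeR, 8 were higher and 1 lower at an unadjusted p under 0.05, and DESeq2 called 2 higher and 1 lower.

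Astrocyte markers summed to 5790.3, 5259, 5602, 7179, 7909 and 6469 CPM in FSK libraries, against 5001, 4456, 4085, 3657, 3499.9 and 6309 CPM in DHPG libraries and 4342, 7237, 7002 and 6499 CPM in DMSO libraries. Of these 12, 6 were higher over all libraries (16.3% of all features) and none in the low-rRNA libraries by edgeR (medians 0.71 and 0.47), where 7 were higher at an unadjusted p under 0.05 (15.7% of all features) and 5 by DESeq2 (7.03%). Aqp4, the astrocyte water channel, had 350.0, 258, 266, 585, 754 and 211 CPM in FSK 1 to 6, against 207, 92.4, 79.7, 83.8, 58.4 and 96.9 CPM in DHPG 1 to 6, and every FSK library was above every DHPG library. Where Fosb, Npas4 and Arl4d were called, in the low-rRNA libraries, FSK 1 to 3 held 44.9 to 59.7 CPM of microglial markers, against 34.4 to 60.7 CPM in DHPG 1 to 5, ranges that overlap. They held 5259 to 5790.3 CPM of astrocyte markers, against 3499.9 to 5001 CPM in DHPG 1 to 5, ranges that do not. Summed cycling-cell markers did not overlap either, at 237 to 273 CPM in FSK 1 to 3, against 148 to 223 CPM in DHPG 1 to 5. The sums of the other marker lists overlapped. The mean log2 CPM of excitatory markers did not, at 4.504 to 4.538 in FSK 1 to 3, against 4.338 to 4.496 in DHPG 1 to 5. The part of these markers in the differences of other genes was not tested.

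Of the remaining marker lists over all libraries, 13 excitatory neuron markers gave 3 lower and none higher (median -0.12), and 12 inhibitory neuron markers gave 3 lower and 3 higher (median -0.31). Endothelial markers gave 1 higher of 5 measured (median 0.95), with Cldn5, Tek, Emcn and Ly6c1 too low to be tested. Fibroblast and mural markers gave none of 12 (median 0.72), cycling-cell markers gave 1 of 12 higher (median 0.32), and choroid plexus and ependymal markers gave 6 of 11 higher (median 1.61). Beside the 16.3% of all features higher and 14.4% lower, the endothelial, fibroblast and cycling-cell counts are near or below background. In the low-rRNA libraries none of these lists had a call by edgeR or limma-voom, with medians of 0.07 for excitatory neurons, -0.03 for inhibitory neurons, 0.31 for endothelium, -0.02 for fibroblasts, 0.48 for cycling cells and 0.75 for choroid plexus. At an unadjusted p under 0.05 these 6 lists had 2, 4, 1, 3, 5 and 4 higher and 2, 3, 0, 0, 1 and 2 lower, where all features had 15.7% and 14.7%. DESeq2 called 2, 3, 0, 0, 4 and 1 higher and 0, 1, 0, 0, 1 and 0 lower, where it called 7.03% and 7.58% of all features. The summed excitatory markers were 720.3 to 999 CPM in FSK libraries, against 924 to 1356 CPM in DHPG libraries.

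**Figure D4:**
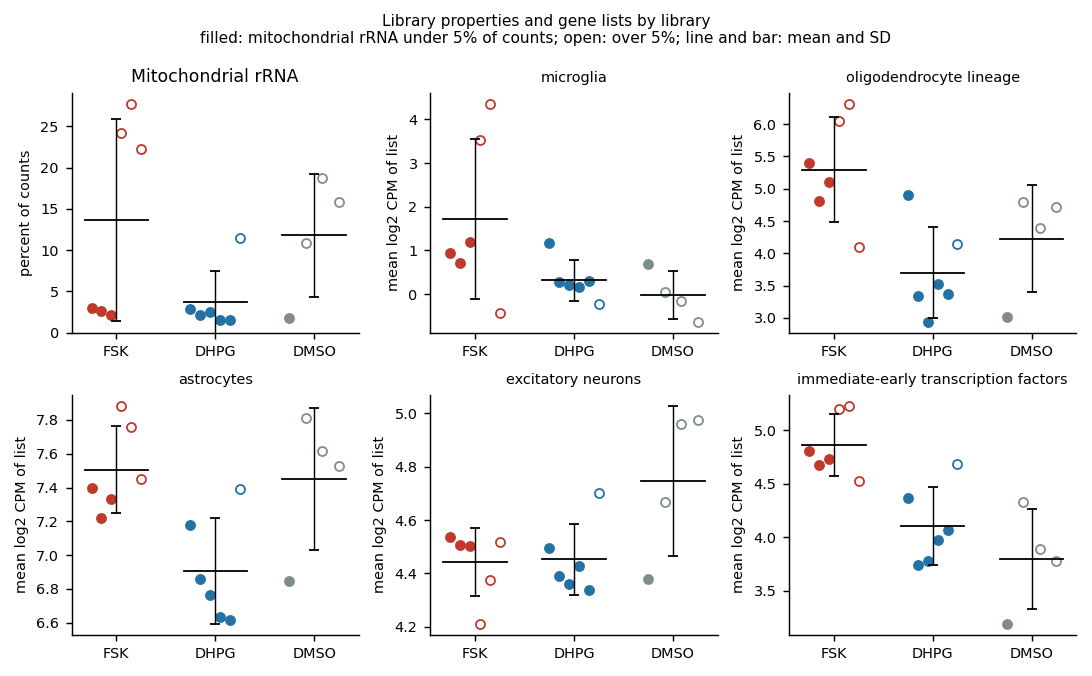
Mitochondrial rRNA as percent of counts and mean log2 CPM of 5 gene lists (vertical axes) by group, with 1 point per library, filled for the low-rRNA set and open for the high-rRNA set. Lines and bars are mean and SD. FSK 4 and FSK 5 are the top 2 points of the microglial and oligodendrocyte panels. The immediate-early list is higher in FSK 1 to 3 than in DHPG 1 to 5, while DHPG 6 lies above FSK 2 and FSK 6.

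The 15 largest decreases over all libraries were of mixed kinds: Gm49361, Gm28900, Gm15501, Lsp1, Gm48583, Mgam, Grin2c, Bdkrb2, Mvd, Emid1, Myo18b, Calb2, Inka2, Hist1h2ad and Pgam2. Gm49361 and Gm28900 had 0 counts in all 6 FSK libraries, at least 182-fold and 134-fold lower than in DHPG at a floor of 3 counts over the group, but 2 and 3 of the 6 DHPG libraries also had 0. Calb2, the calcium-binding protein calretinin of interneurons and granule cells, had 86.6, 95.3, 92.9, 38.8, 51.9 and 93.7 CPM in FSK 1 to 6, against 120.0, 227, 311, 210.1, 252 and 122 CPM in DHPG 1 to 6 and 233, 86.5, 106 and 102 CPM in DMSO 1 to 4. Every FSK library lay below every DHPG library, DMSO 1 lay with DHPG 2 to 5, and DHPG 1, DHPG 6 and DMSO 2 to 4 lay near the FSK values. The log2 fold change was -1.44 over all libraries (edgeR adjusted p = 0.016) and -1.28 in the low-rRNA libraries (adjusted p = 0.090).

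Inka2, an inhibitor of a p21-activated kinase, showed the same arrangement, with 29.9, 32.2, 31.0, 17.0, 19.0 and 37.0 CPM in FSK 1 to 6, against 39.5, 96.4, 94.5, 86.7, 81.4 and 39.9 CPM in DHPG 1 to 6 and 92.0, 26.8, 31.6 and 39.1 CPM in DMSO 1 to 4. Mvd, an enzyme of sterol synthesis, had 41.3, 40.3, 42.8, 17.9, 15.9 and 22.4 CPM in FSK libraries, against 45.5, 79.5, 103, 109, 135 and 42.2 CPM in DHPG libraries and 84.9, 28.4, 36.8 and 29.4 CPM in DMSO libraries. In both genes DHPG 1 and DHPG 6 stood near the FSK values and apart from DHPG 2 to 5. Grin2c, an NMDA receptor subunit, and Lsp1, an actin-binding protein best known from leukocytes, had log2 fold changes of -1.72 and -1.87 (edgeR adjusted p = 0.017 and 0.016).

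The fold change also moved with gene length. Taking the genomic span of each gene from RefSeq, matched for 93.4% of the features tested, the median span was 41.7 kb for genes higher in FSK over all libraries, 15.9 kb for those lower and 22.2 kb for all. In the low-rRNA libraries the median log2 fold change of the 5 equal groups from shortest to longest was -0.11, -0.08, -0.02, 0.07 and 0.14, and the share of genes with a positive value was 36.9% in the shortest and 64.1% in the longest. Over all libraries these medians were -0.17, -0.09, 0.01, 0.12 and 0.20. Each library was also described by the median deviation of its longest genes minus that of its shortest. Deviations were taken from each gene's mean over the 12 FSK and DHPG libraries, without DMSO. The difference was 0.047, 0.0091, -0.0052, 0.21, 0.32 and 0.33 in FSK 1 to 6, against -0.10, -0.23, -0.40, -0.03, -0.28 and -0.07 in DHPG 1 to 6. The groups did not overlap, and DMSO libraries (-0.25, 0.017, 0.0089 and 0.24) spanned both.

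**Figure D5:**
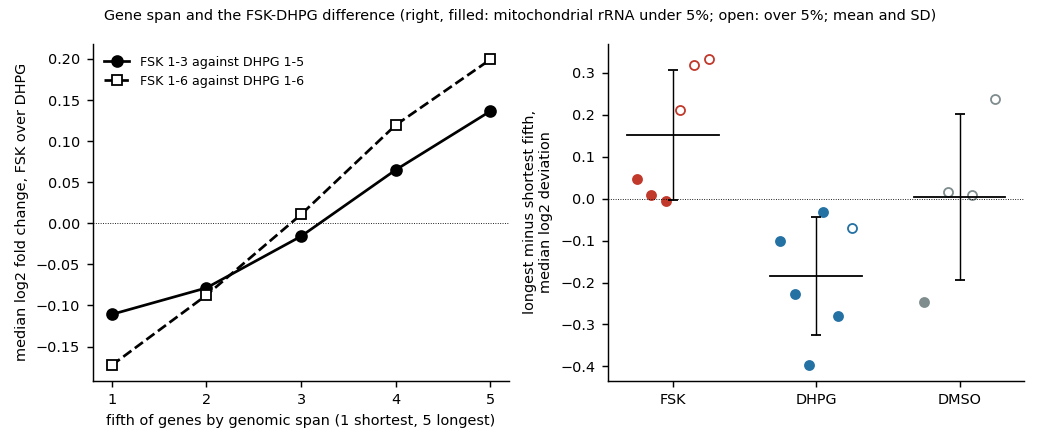
Left, median log2 fold change of FSK over DHPG (vertical axis) in 5 equal groups of genes from shortest to longest genomic span, for the low-rRNA libraries (filled) and all libraries (open). Right, median log2 deviation of the longest genes minus that of the shortest in each library, with mean and SD by group. The medians increase from -0.11 to 0.14 in the low-rRNA libraries, and every FSK point lies above every DHPG point on the right.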

How the data were processed

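Total RNA was extracted with Trizol and chloroform and made into libraries with a stranded total RNA kit, per the labels' protocols. The authors deposited estimated counts per gene, of which 26.6% of values were not whole, with a biotype for each gene. Salmon, DESeq and GRCm38 are named in the submitters' processing notes, with versions not given in the sources used here. Counts were rounded to whole numbers. Of 51267 features, 24 names had been turned into spreadsheet dates (0.209% of counts), so genes under those names are not reported. Features were filtered with edgeR's filterByExpr at a minimum count of 10, scaled by TMM, and tested with edgeR 4.0.16 (R 4.3.3, limma 3.58.1) by the robust quasi-likelihood F test, with Benjamini-Hochberg adjustment over all features tested and a limit of 0.05. The comparison over all libraries is the FSK minus DHPG contrast of a fit to 16 libraries, the 4 DMSO libraries included. The low-rRNA comparison is a fit of its own to 8 libraries, those with mt-Rnr1 plus mt-Rnr2 under 5% of counts. No test was made within the high-rRNA libraries, where DHPG has 1 library. Log2 CPM used a prior count of 2. Alternatives included DESeq2 1.42.0, limma-voom, other scalings, no filter, a library set term, 6 groups of stimulus and library set, a replicate block and leaving out libraries. No replicates were identical: the smallest chi-square per feature between replicates of a group was 5.63.

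Genes named are the 15 largest changes in each direction over all libraries and the 10 in the low-rRNA libraries, among features with an adjusted p under 0.05 and an average log2 CPM of at least 0. Where fewer than 5 passed, those of smallest p are given. Up to 4 passing members of smallest p of each list, and 20 genes given whatever their result, complete the rule; some genes that it names are not reported here. Plk3, Klf10, Plcb4, Gem and Mir1938 were named after their values were seen. The genes, lists and tests were chosen with earlier results of these data known. Promoter windows and gene spans come from RefSeq tables of GRCm38.p6. Pseudogenes and families of near-identical genes may share reads, and whether counting used strand is not given in the sources used here.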

Additional observations from a re-analysis of the deposited data

Results flagged for a closer look

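A library was set apart here where its gap to the nearest library of its group exceeded Dixon's 95% value. This held in 11 of 70 checks (35 genes in the FSK and DHPG groups), where chance alone would give about 1 in 20. DHPG 6, the only DHPG library of high mitochondrial rRNA share, was high for Dusp1 (60.45 CPM, the next DHPG library at 25.04), Zic2 (13.29, next 7.762), Leng8 (20.56, next 13.03), Egr1 (140.8, next 52.71) and C3 (30.44, next 7.455). DHPG 1 was high for the astrocyte gene Aqp4 (207.0 CPM, next 96.89). FSK 5 was high for Lcn2 (548.8 CPM, next 57.37), Gm26822 (6.679, next 1.564) and Egr2 (26.86, next 19.16). FSK 4 was low for Npas4 (97.82 CPM, next 126.4). FSK 6 had 0.3998 CPM of Gm3788, where the other FSK libraries had 0.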

How the results depend on the processing

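Over all libraries the 5283 calls were 2510 with library totals in place of TMM, 2905 without the filter, 3 without FSK 4 and FSK 5 and 1551 without them with a library set term. DESeq2 size factors, DESeq2 itself (6356), limma-voom, FSK and DHPG libraries alone, the set term and a limit of 0.1, chosen after seeing the data, stayed within 1.5 times. Leaving out 1 library gave 1804 to 5798 calls, and 1665 of the 5283 passed in all 16 such fits. In the low-rRNA libraries the 11 calls were 2198 with DESeq2, 32 with limma-voom, 280 without the filter, 8 in the fit of 6 groups, 2078 at the limit of 0.1, and 3 to 4179 when 1 library was left out. The cause of these changes was not tested.

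Same-numbered FSK and DHPG libraries did not deviate together (r of -0.31 to 0.22 over all libraries), so the numbers were not taken as pairs. A replicate block gave 2068 calls over all libraries and 1885 in the low-rRNA libraries. Only FSK 6 over all libraries, and FSK 1 in the low-rRNA libraries, correlated best with its own number.

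With 3 FSK libraries in the low-rRNA comparison and totals near 20677117 counts in most of its libraries, genes as low as Trh rest on few counts, and a p past the limit there does not show equal levels.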

Other observations

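Genes of sterol synthesis and its regulation, a list chosen after its values were seen, leaned lower in FSK than in DHPG. Of 19 measured over all libraries, 12 were lower and none higher (where 14.4% of all features were lower), 18 had a negative log2 fold change and the median was -0.62. In the low-rRNA libraries none passed by edgeR or limma-voom, 13 were lower at an unadjusted p under 0.05 (14.7% of all features) and 13 by DESeq2 (7.58%), 18 were negative, the median was -0.49, and in 11 every FSK library lay below every DHPG library (10.8% of all features). Fdps, which makes farnesyl diphosphate, had 139, 149, 144, 52.6, 48.0 and 122 CPM in FSK 1 to 6, against 148, 278, 353, 261, 306 and 133 CPM in DHPG 1 to 6 and 319, 80.0, 109 and 86.7 CPM in DMSO 1 to 4. The mean log2 CPM of the list was 5.99 to 6.69 in FSK libraries, against 6.64 to 7.30 in DHPG libraries, with DHPG 1 and DHPG 6 the lowest of these, and 7.19 in DMSO 1 and 6.32 to 6.59 in DMSO 2 to 4. DMSO 1, the DMSO library of the low-rRNA set, thus lay within the DHPG range, and the other 3 within the FSK range.

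Increases over all libraries included more noncoding features than decreases did. Of the 2803 higher features 2570 were protein-coding, 75 lincRNA, 43 processed transcripts, 32 antisense and 32 processed pseudogenes. Of the 2480 lower ones the counts were 2380, 20, 10, 20 and 18. The share of each biotype among all features tested is not given here, so these counts have no background beside them.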
